A study of Mus musculus with 80 samples.

Results

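Arsg and 7 genes of the Slc16 family were followed across cell type, fraction, feeding and time in mouse liver nuclei. Arsg encodes arylsulfatase G, a lysosomal enzyme that removes sulfate groups during the breakdown of heparan sulfate, and its start overlaps that of Slc16a6 in the genome. The 8 members, Arsg, Slc16a6, Slc16a1, Slc16a7, Slc16a10, Slc16a11, Slc16a12 and Slc16a13, were taken by symbol from a count table of 20105 genes, and all 8 passed the filter on low counts in hepatocyte-tagged nuclei, macrophage-tagged nuclei and unpurified liver. Arsg was chosen because its fasting effect changed direction with time in these data, and Slc16a6 because it shares the locus. For these 2 genes the fasting effects, their change with time and the fed time course are therefore given as descriptions, with no test. The other 6 genes were chosen by family and were tested.

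Female mice of 2 lines were used, HEP-INTACT mice with nuclei tagged in hepatocytes and MAC-INTACT mice with nuclei tagged in macrophages and immunopurified on beads. A fast began at zeitgeber time 12, the start of the active dark phase, and livers were taken 3, 8, 16 and 24 h later, at zeitgeber times 15, 20, 4 and 12. Fed controls with free access to food were taken at every time point, so each fasting effect is a difference between fasted and fed libraries at the same hour of the day. Each line had 4 tagged libraries in each of 8 groups, 32 per line. A further 16 libraries held unpurified liver nuclei, 1 pool of 4 mice per condition and line. Total nuclear RNA was sequenced without selection for polyadenylated RNA. The age of the mice, the driver of the tag and the number of mice behind each tagged library are not stated in the sources, so the p-values measure the spread between libraries.

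The Slc16 family, the monocarboxylate transporters, carries small organic acids and related molecules across membranes. MCT1, the product of Slc16a1, and MCT2, the product of Slc16a7, move lactate, pyruvate and ketone bodies together with a proton, and MCT1 needs the chaperone basigin to reach the membrane. In fasting the liver takes up lactate and amino acids for glucose synthesis and exports ketone bodies, and the direction of this transport follows the gradients of the substrates. Other members carry other cargo: TAT1, the product of Slc16a10, carries aromatic amino acids, and the product of Slc16a12 carries creatine.

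Library totals were 12597786 to 30089561 counts in hepatocyte-tagged, 14968505 to 44694933 in macrophage-tagged and 13246494 to 35514304 in unpurified libraries. Values are CPM, counts relative to the scaled library total, and a gene is called changed when its adjusted p is under 0.05 in edgeR's quasi-likelihood test with Benjamini-Hochberg adjustment over all genes tested. The labelled cell types were checked against markers. The summed level of 12 Kupffer cell and macrophage markers was 4262 to 7613 CPM in macrophage-tagged libraries and 33.7 to 92.6 CPM in hepatocyte-tagged libraries. The summed level of 12 hepatocyte markers was 12812 to 31981 CPM in hepatocyte-tagged libraries but also 4660 to 22905 CPM in macrophage-tagged libraries, so hepatocyte marker RNA was present in the macrophage fraction. In these bulk libraries, fewer nuclei of a type and less RNA per nucleus cannot be told apart.

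Arsg and Slc16a6 lie head to head on mouse chromosome 11 of build mm10. The count table lists Slc16a6 on the minus strand at chr11:109450855-109473596, a gene body of 22741 bases, and Arsg on the plus strand at chr11:109473373-109573329, a gene body of 99956 bases. The listed bodies overlap by 223 bases at their starts, which is 0.98% of Slc16a6 and 0.22% of Arsg. Listed lengths equal gene end minus start, so introns are included. The sources do not state whether reads were counted by strand, and reads in those 223 bases could belong to either gene. Wipi1, which encodes a protein of autophagosome formation, lies 191 bases beyond the far end of Arsg on the opposite strand, and Amz2 lies 12707 bases from Slc16a6. Slc16a11 and Slc16a13 are also neighbours, at chr11:70213909-70216414 and chr11:70216791-70220994, with their ends 377 bases apart. Slc16a1 lies on chromosome 3, Slc16a7 and Slc16a10 on chromosome 10, and Slc16a12 on chromosome 19.

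Promoter windows of 5 of the 8 members, Arsg, Slc16a1, Slc16a10, Slc16a11 and Slc16a12, were found in RefSeq sequence of build GRCm38.p6. Those of Arsg lie at starts inside its listed gene body, and none covers the start it shares with Slc16a6. The windows of Slc16a11, which also had called fasting effects, and of Arsg are not shown. Those of Slc16a1, Slc16a10 and Slc16a12 are shown for their called fasting effects at 16, 8 and 24 h described further on. Each is the 250 bases before the annotated start, 5′ to 3′ in the direction of transcription, at chr3:104638414-104638663 on the plus strand, chr10:40142255-40142504 on the minus strand and chr19:34747329-34747578 on the minus strand. Capitals mark matches to the motifs searched.
Slc16a1: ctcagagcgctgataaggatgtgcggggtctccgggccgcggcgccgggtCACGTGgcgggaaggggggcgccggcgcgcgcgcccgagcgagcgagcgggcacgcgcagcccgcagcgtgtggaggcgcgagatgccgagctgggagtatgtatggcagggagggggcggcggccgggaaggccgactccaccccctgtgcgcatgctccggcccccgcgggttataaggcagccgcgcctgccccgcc
Slc16a10: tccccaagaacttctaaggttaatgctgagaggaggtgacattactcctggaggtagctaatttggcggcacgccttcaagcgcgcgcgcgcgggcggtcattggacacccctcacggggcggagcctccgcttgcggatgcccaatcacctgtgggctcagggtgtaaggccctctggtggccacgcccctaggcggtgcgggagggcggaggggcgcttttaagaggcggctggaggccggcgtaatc
Slc16a12: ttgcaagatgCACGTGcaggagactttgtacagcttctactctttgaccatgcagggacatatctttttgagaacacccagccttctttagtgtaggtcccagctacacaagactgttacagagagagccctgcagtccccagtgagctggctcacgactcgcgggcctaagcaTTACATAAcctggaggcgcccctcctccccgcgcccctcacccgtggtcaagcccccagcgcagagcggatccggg
The motifs, read on both strands, were the E-box CACGTG bound by clock factors, the cyclic AMP response element TGACGTCA, the forkhead motif TGTTTAC, the D-box TTATGNAA, the direct repeat bound by PPAR receptors, AGGTCA and AGGTCA with 1 base between, and the glucocorticoid response element, AGAACA and TGTTCT with 3 bases between. Slc16a1 held 1 E-box, beginning 200 bases before the start, and Slc16a12 held 1 E-box 240 bases before the start and 1 D-box 76 bases before it. For Slc16a12 this annotated start lies upstream of the gene start in the count table, chr19:34747111. The Slc16a10 window held no match to these letters, and the windows of Slc16a11 and Arsg, which were searched too, held none either. Of all 32851 RefSeq windows of this length, 6.02% held the E-box, 3.07% the D-box, 1.55% the cyclic AMP response element, 3.17% the forkhead motif, 0.0335% the direct repeat and 0.00913% the glucocorticoid element. No matches overlapped each other in the 3 windows. The Slc16a1 window was rich in CG dinucleotides, 37 in 250 bases, against 21 for Slc16a10, 11 for Slc16a12 and a median of 6 over all windows.

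Arsg showed the change of direction for which it was chosen. In fed hepatocyte nuclei its level in the 4 libraries was 57.5, 41.9, 45.2 and 42.7 CPM at 3 h, and in fasted nuclei 18.1, 21.5, 15.3 and 16.7 CPM. At 8 h the fed libraries stood at 58.0, 62.2, 72.3 and 64.1 CPM and the fasted ones at 41.1, 31.6, 42.2 and 37.6 CPM. Every fasted library was thus below every fed library at both times of the night. By 16 h, in the light phase, the order was the other way, with 85.8, 62.8, 90.6 and 68.1 CPM in fed and 165, 149, 210 and 125 CPM in fasted nuclei. At 24 h the fed libraries had 21.9, 22.7, 36.3 and 21.2 CPM and the fasted ones 69.9, 58.9, 74.6 and 83.2 CPM. Every fasted library was above every fed library at these later times.

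The log2 fold change of Arsg, fasted over fed, was -1.33 ± 0.17 (SE) at 3 h, -0.69 ± 0.17 at 8 h, 1.10 ± 0.17 at 16 h and 1.51 ± 0.17 at 24 h, or 0.40-, 0.62-, 2.14- and 2.84-fold. Of all 12942 genes tested in hepatocyte nuclei, 39.9% were called at 3 h, 38.7% at 8 h, 18.1% at 16 h and 24.0% at 24 h, and 32.8% had a fasting effect that differed between times. The authors' deposited table lists log2 fold changes of -1.33, -0.65, 1.10 and 1.51 for Arsg in hepatocyte nuclei. Both arms moved over the day. The fed mean was highest at 16 h, 76.8 ± 13.4 CPM (SD, n = 4), and lowest at 24 h, 25.5 ± 7.22 CPM. Among fasted groups the lowest was at 3 h, 17.9 ± 2.65 CPM, and the highest at 16 h, 162 ± 35.9 CPM.

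Slc16a6, whose product MCT7 is known as a carrier of ketone bodies and taurine, was lower with fasting at 3 of the 4 times. In fed hepatocyte nuclei at 3 h it stood at 37.1, 30.1, 46.2 and 47.5 CPM, and in fasted nuclei at 13.9, 15.2, 8.66 and 11.5 CPM. At 8 h the values were 52.4, 35.2, 44.8 and 46.1 CPM fed and 22.0, 13.4, 22.7 and 11.7 CPM fasted. No library of 1 feeding state reached the range of the other at these times. At 16 h the groups overlapped, at 31.98, 21.4, 36.8 and 24.1 CPM fed and 15.4, 18.1, 44.9 and 24.7 CPM fasted. At 24 h, fed nuclei had 24.9, 17.8, 11.3 and 16.1 CPM and fasted nuclei 6.87, 7.34, 8.17 and 8.69 CPM, again with no overlap. The log2 fold changes were -1.65 ± 0.29, -1.29 ± 0.28, -0.12 ± 0.28 and -1.15 ± 0.29 (SE). The value at 16 h had no steady sign: it was -0.54 without fasted library 3, and 0.07, 0.02 and 0.03 without fasted library 1, fasted library 2 or fed library 3.

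**Figure D1:**
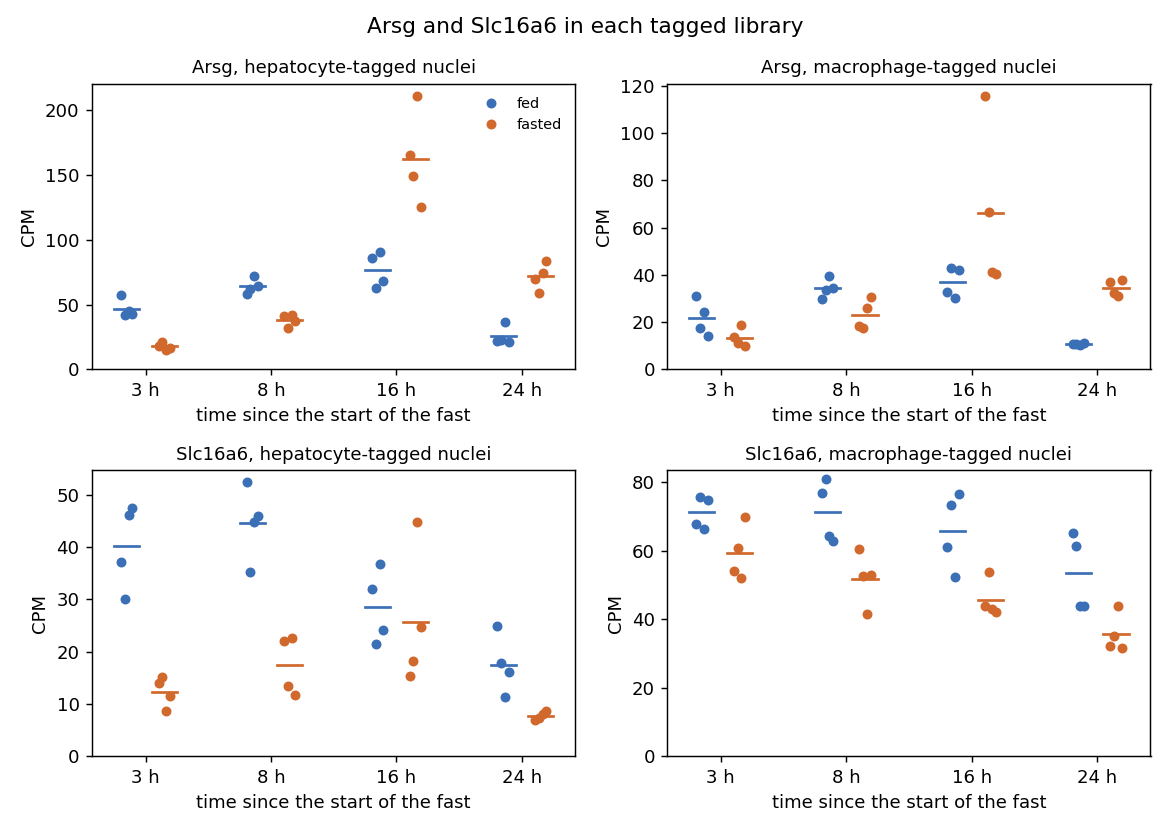
Level of Arsg (top) and Slc16a6 (bottom) in CPM in each tagged library, by time since the start of the fast, in fed (blue) and fasted (orange) mice, hepatocyte-tagged on the left and macrophage-tagged on the right. Points are libraries and bars are means of 4. Arsg in hepatocyte nuclei runs below the fed libraries at 3 and 8 h and above them at 16 and 24 h, while Slc16a6 is below or overlaps at every time.

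The count ratio of the 2 genes was highest late in the fast. The ratio of Arsg counts to Slc16a6 counts in fed hepatocyte nuclei had group medians of 1.18 at 3 h, 1.504 at 8 h, 2.75 at 16 h and 1.30 at 24 h. In fasted nuclei the medians were 1.43, 2.11, 6.63 and 9.35. At 24 h the ratio ran from 8.03 to 10.2 in fasted libraries and from 0.879 to 3.22 in fed ones. Because the ratio is taken within a library, library scaling does not enter it.

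In macrophage-tagged nuclei the median of Arsg was below the fed median at 3 and 8 h and above it at 16 and 24 h. Fed libraries stood at 31.0, 17.3, 24.4 and 14.2 CPM at 3 h and 29.7, 33.6, 39.5 and 34.3 CPM at 8 h. The fasted libraries had 13.5, 11.3, 18.6 and 9.75 CPM at 3 h and 18.4, 17.7, 26.0 and 30.8 CPM at 8 h. The groups overlapped at both times. At 16 h the fed libraries had 32.8, 42.9, 30.2 and 42.2 CPM and the fasted ones 116, 66.8, 41.3 and 40.3 CPM. At 24 h the fed libraries had 10.7, 10.8, 10.3 and 11.3 CPM and the fasted ones 37.0, 32.2, 31.1 and 37.9 CPM. These last 2 groups were the only ones of the 4 pairs that did not overlap.

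The log2 fold changes of Arsg in macrophage nuclei were -0.73 ± 0.28, -0.56 ± 0.28, 0.87 ± 0.27 and 1.66 ± 0.29 (SE) at 3, 8, 16 and 24 h. Without fasted library 1, the value at 16 h was 0.42. Of the 13864 genes tested in macrophage nuclei, 12.4% were called at 3 h, 12.8% at 8 h, 13.7% at 16 h and 11.7% at 24 h. The summed hepatocyte markers moved with feeding in this fraction: the group medians were 7090 CPM fed and 10866 CPM fasted at 3 h, 5934 and 10730 CPM at 8 h, 6323 and 8258 CPM at 16 h, and 9047 and 12798 CPM at 24 h. Of the 12 markers, 3 rose at 3 h and 7 at 8 h in macrophage nuclei. In hepatocyte nuclei the sum also moved, with group medians of 17239 CPM fed and 27246 CPM fasted at 3 h. They were 16435 and 18450 CPM at 8 h, 17639 and 17657 CPM at 16 h, and 24262 and 28105 CPM at 24 h. The part of hepatocyte RNA in the Arsg values of macrophage nuclei was not tested. The difference of the Arsg fasting effects, hepatocyte minus macrophage, was -0.54 ± 0.32, -0.06 ± 0.32, 0.31 ± 0.31 and -0.15 ± 0.32.

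Slc16a6 was higher in macrophage nuclei. Fed libraries ranged from 66.4 to 75.8 CPM at 3 h, 62.8 to 81.0 CPM at 8 h, 52.3 to 76.5 CPM at 16 h and 43.7 to 65.1 CPM at 24 h. In fasted libraries the ranges were 52.0 to 69.9, 41.7 to 60.3, 42.1 to 53.8 and 31.7 to 43.8 CPM. Only the groups at 8 h did not overlap. The log2 fold changes were -0.29 ± 0.13, -0.45 ± 0.13, -0.50 ± 0.13 and -0.60 ± 0.13 (SE). Hepatocyte marker RNA was present in this fraction, and Slc16a6 was also lower with fasting in hepatocyte nuclei. The part of hepatocyte RNA in these values was not tested. The difference of the Slc16a6 fasting effects at 3 h, hepatocyte minus macrophage, was -1.31 ± 0.32. At 16 h the hepatocyte value, -0.12, was a smaller fall than the macrophage value.

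The labels do not say whether the pools of unpurified liver hold nuclei of the same mice as the tagged libraries, so Arsg and Slc16a6 are described in them with no test. Arsg stood at 37.7 and 38.9 CPM in the 2 fed pools at 3 h, from the HEP-INTACT and MAC-INTACT lines, and at 17.1 and 14.6 CPM in the fasted pools. At 8 h the fed pools had 51.9 and 74.1 CPM and the fasted pools 33.7 and 31.9 CPM. At 16 h they had 67.0 and 82.2 CPM fed and 126 and 109 CPM fasted. At 24 h they had 23.9 and 12.3 CPM fed and 57.7 and 57.6 CPM fasted. In both lines the fasted pool was the lower at 3 and 8 h and the higher at 16 and 24 h.

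The log2 fold change of Arsg in unpurified liver was -1.28 ± 0.25 (SE) at 3 h, -0.97 ± 0.24 at 8 h, 0.64 ± 0.24 at 16 h and 1.68 ± 0.26 at 24 h. Averaged over the 4 times it was 0.02 ± 0.12.

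Slc16a6 was lower in 7 of the 8 fasted pools than in the fed pool of its line and time. The fed pools of the 2 lines stood at 34.1 and 42.9 CPM at 3 h, 35.9 and 26.1 CPM at 8 h, 22.1 and 34.3 CPM at 16 h and 16.4 and 16.1 CPM at 24 h. The fasted pools had 13.5 and 15.4, 18.5 and 16.7, 24.9 and 18.4, and 10.4 and 7.77 CPM. Only at 16 h, in the HEP-INTACT line, was a fasted pool above its fed pool. Its log2 fold change was -1.42 ± 0.24 (SE) at 3 h, -0.84 ± 0.23 at 8 h, -0.40 ± 0.23 at 16 h and -0.84 ± 0.25 at 24 h, with a mean over times of -0.88 ± 0.12. In the pools, too, the Arsg to Slc16a6 count ratio was largest in fasted liver at 24 h, at 5.54 and 7.42, against 1.46 and 0.764 in fed liver.

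**Figure D2:**
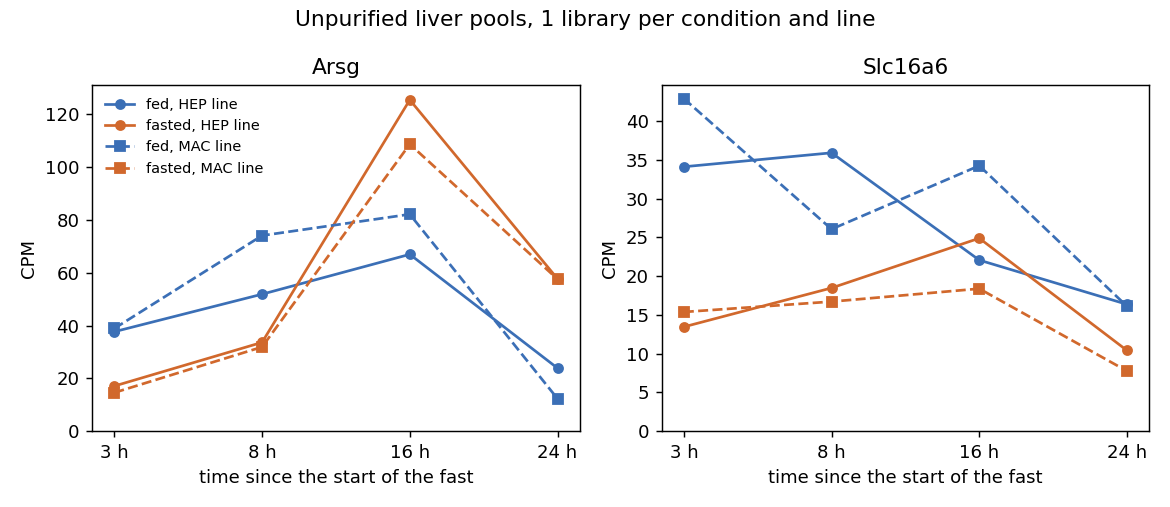
Arsg (left) and Slc16a6 (right) in CPM in the 16 pools of unpurified liver nuclei, 1 library per point, by time since the start of the fast, with fed in blue, fasted in orange, the HEP line as circles on solid lines and the MAC line as squares on dashed lines. For Arsg the fasted lines lie below the fed lines at 3 and 8 h and above them at 16 and 24 h in both mouse lines.

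Among the 5 genes whose profiles over the 8 hepatocyte groups were nearest to that of Arsg were Zfp618, Ank1, Pou6f1 and Klhdc8a. Likeness was the root mean square difference between centred mean log2 CPM profiles, 0.34, 0.35, 0.36 and 0.38 for these 4 among 11556 genes, and is a description of the same libraries. By this measure Slc16a6 stood at rank 8248 from Arsg, with a difference of 1.03. Nearest to Slc16a6 were Olfr56, Ly6e, Smim3, Suv39h2 and Fam84b, at 0.22 to 0.27. Slc16a11 was the nearest family member to Slc16a6, at rank 581, whereas Arsg was at rank 10122. Between its lowest and highest group mean, Arsg spanned 3.16 and Slc16a6 2.51 on the log2 scale.

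Of the genes beside the locus, Wipi1 rose early in hepatocyte nuclei, when Arsg was low. Its log2 fold change was 1.17 ± 0.23 at 3 h (edgeR adjusted p = 0.000159) and 1.37 ± 0.23 at 8 h (adjusted p = 2.35e-05), and it was 0.25 ± 0.22 and -0.38 ± 0.22 at 16 and 24 h, which did not pass. Amz2, which encodes a metalloprotease, fell at 8 h by 0.45 ± 0.16 on the log2 scale (edgeR adjusted p = 0.0215) and at 24 h by 0.63 ± 0.16 (adjusted p = 0.00419). The 8 h call for Amz2 was lost without any 1 of 4 of the 8 libraries of that time, with adjusted p values up to 0.0783. In macrophage nuclei Wipi1 rose by 0.65 ± 0.20 at 8 h (adjusted p = 0.0343) and 0.61 ± 0.20 at 16 h (adjusted p = 0.0436), calls lost in 5 and 6 of 8 fits without 1 library. Without fasted library 1 of 16 h the value there was 0.24 (adjusted p = 0.428). The hepatocyte marker sum of macrophage-tagged libraries, given with Arsg, had a higher median in fasted than fed groups at both times. Its part was not tested.

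Among the 6 Slc16 genes tested in hepatocyte nuclei, 2 rose and none fell at 3 h, 4 rose and 1 fell at 8 h, 1 rose and 1 fell at 16 h, and 1 rose and 2 fell at 24 h, by edgeR. Of all genes tested, 19.5% rose and 20.4% fell at 3 h, 18.0% and 20.7% at 8 h, 9.55% and 8.55% at 16 h, and 11.6% and 12.4% at 24 h. The median log2 fold change of the 6 was 0.33, 0.79, 0.56 and 0.02 at the 4 times, and the median over all genes tested was -0.03, -0.02, 0.01 and -0.01. In macrophage nuclei 1 of the 6 rose at each of 3, 8 and 16 h and none was called at 24 h. Of all genes tested there, 7.70% rose and 4.68% fell at 3 h, 7.44% and 5.40% at 8 h, 7.72% and 5.99% at 16 h, and 5.31% and 6.35% at 24 h. The median of the 6 there was -0.02, 0.18, 0.33 and -0.01. In unpurified liver 1 of the 6 rose at 3 h, 2 rose and 1 fell at 8 h, 1 rose at 16 h, 2 fell at 24 h, and 1 rose and 2 fell in the mean over times. Of the 13700 genes tested there, 18.1% were called at 3 h (8.79% up and 9.26% down), 20.5% at 8 h (8.72% and 11.7%), 5.91% at 16 h (2.11% and 3.80%), 5.98% at 24 h (2.88% and 3.09%) and 35.2% in the mean (16.4% and 18.8%), and 5.96% had an effect that differed between times.

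**Figure D3:**
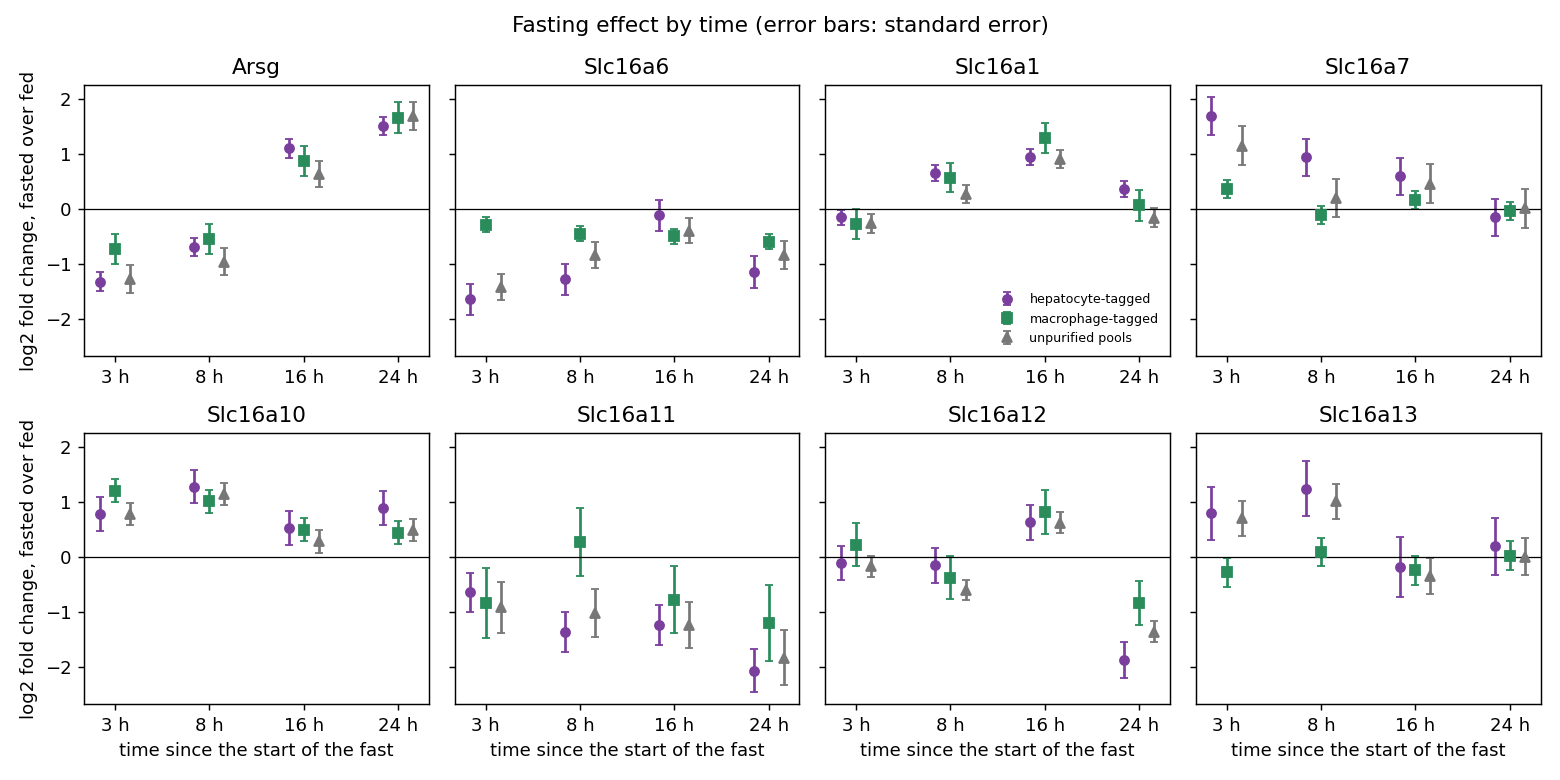
Fasting effect on each of the 8 genes as log2 fold change, fasted over fed, by time since the start of the fast, in hepatocyte-tagged nuclei (circles), macrophage-tagged nuclei (squares) and unpurified pools (triangles), with standard errors. Slc16a1 peaks at 16 h, Slc16a7 is highest at 3 h in hepatocyte nuclei, Slc16a10 lies above 0 throughout and Slc16a12 is lowest at 24 h.

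Slc16a1, the gene of the lactate and ketone body carrier MCT1, rose in hepatocyte nuclei at 8 and 16 h. At 3 h fed nuclei had 34.6, 32.6, 34.0 and 37.1 CPM and fasted nuclei 32.03, 31.1, 27.4 and 28.3 CPM. At 8 h, when the summed macrophage markers in these libraries had medians of 47.2 CPM fed and 74.3 CPM fasted, the fed values of Slc16a1 were 31.1, 32.6, 30.3 and 33.4 CPM and the fasted values 50.0, 41.1, 56.2 and 44.4 CPM. At 16 h they were 19.0, 21.3, 22.2 and 25.4 CPM and 36.2, 36.1, 36.7 and 56.5 CPM. All fasted libraries lay above all fed ones at 8 and 16 h, while at 3 h all lay below them by a small margin. At 24 h, 12.9, 13.6, 12.3 and 19.8 CPM in fed and 18.2, 18.4, 20.5 and 16.9 CPM in fasted nuclei overlapped.

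The log2 fold change of Slc16a1 was -0.16 ± 0.14 at 3 h (edgeR adjusted p = 0.404), 0.65 ± 0.14 at 8 h (adjusted p = 0.000703), 0.94 ± 0.14 at 16 h (adjusted p = 4.06e-05) and 0.36 ± 0.15 at 24 h (adjusted p = 0.0773). The effect differed between times (edgeR F-test, adjusted p = 0.00104). At 16 h the summed level of 8 stellate cell markers in these libraries had medians of 115 CPM fed and 58.7 CPM fasted, with 2 of the 8 called lower, and its part in the 16 h effects was not tested. At 24 h the value without fed library 4, which was the highest of its group, was 0.54 and passed (adjusted p = 0.00792). In macrophage nuclei, where Slc16a1 was lower, it rose at 16 h by 1.28 ± 0.27 (adjusted p = 0.00255), from 5.15, 9.14, 4.997 and 9.17 CPM fed to 21.7, 14.7, 15.1 and 16.5 CPM fasted. Of the 12 hepatocyte markers, 3 rose at that time too, and their part was not tested. Its change with time in macrophage nuclei was near the threshold (adjusted p = 0.0492, for 4.65% of genes called), and that call was lost in 23 of 32 fits that left out 1 library each, with RLE size factors (adjusted p = 0.0527), with no filter (adjusted p = 0.0542) and with the library-number block (adjusted p = 0.0622). In unpurified liver Slc16a1 rose at 16 h (0.90 ± 0.17, adjusted p = 0.0103) and its effect differed between times (adjusted p = 0.0327).

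Slc16a7, the gene of the high-affinity carrier MCT2, rose early in hepatocyte nuclei. At 3 h it stood at 106, 91.6, 122 and 103 CPM in fed and at 337, 442, 227 and 297 CPM in fasted nuclei, with every fasted library above every fed one. The log2 fold change was 1.69 ± 0.34 (edgeR adjusted p = 0.000307), the largest rise of any of the 6 tested members in hepatocyte nuclei. At 8 h the fed libraries had 94.9, 105, 102 and 56.5 CPM and the fasted ones 122, 200, 99.6 and 241 CPM, a rise of 0.94 ± 0.34 (adjusted p = 0.0299) with overlapping groups. That call was lost without fasted library 2 or 4 or fed library 4, with adjusted p values of 0.0685, 0.121 and 0.102. The values at 16 and 24 h were 0.59 ± 0.34 and -0.15 ± 0.33 and did not pass. The effect differed between times (adjusted p = 0.0244).

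No fasting effect on Slc16a7 was called in macrophage nuclei, where the log2 fold change was 0.36 ± 0.17 at 3 h (edgeR adjusted p = 0.142). Without fasted library 2 of that time it passed, at 0.49 (adjusted p = 0.0402). Over all 8 fits without 1 library it ran from 0.08 to 0.49, with adjusted p values up to 0.802. The fasted libraries had 174, 154, 312 and 203 CPM. Fasted library 3, the highest, also had the highest hepatocyte marker sum of the macrophage-tagged libraries, whose part was not tested. The 3 h effect was larger in hepatocyte than in macrophage nuclei by 1.38 ± 0.38 (adjusted p = 0.0136), a comparison in which 10.6% of 14011 genes were called, 6.20% with a higher and 4.40% with a lower effect. It was the only difference between cell types called by edgeR among the 6 tested members over the 4 times, and DESeq2 also called Slc16a7 at 8 h (adjusted p = 0.0394). Across those other times 7.62% of genes were called at 8 h (3.86% higher and 3.76% lower), 0.535% at 16 h (0.407% and 0.128%) and 4.05% at 24 h (2.10% and 1.95%). Cell type, mouse line and library series cannot be told apart in these differences. In unpurified liver the 3 h value was 1.15 ± 0.36 (edgeR adjusted p = 0.0513, DESeq2 adjusted p = 0.00273), from 80.5 and 122 CPM fed to 266 and 157 CPM fasted.

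Slc16a10, the gene of the aromatic amino acid carrier TAT1, rose at 3, 8 and 24 h in hepatocyte nuclei. At 8 h it stood at 656, 738, 705 and 581 CPM in fed nuclei and at 971, 1518, 1272 and 2505 CPM in fasted nuclei, with no overlap. The log2 fold change was 1.28 ± 0.31 at 8 h (edgeR adjusted p = 0.00157), 0.78 ± 0.30 at 3 h (adjusted p = 0.0419) and 0.89 ± 0.31 at 24 h (adjusted p = 0.0335). At 3 h all fasted libraries, 1297 to 2032 CPM, were above all fed ones, 858 to 1242 CPM. At 24 h the groups overlapped, 630 to 1323 CPM fed and 1115 to 2163 CPM fasted. The calls at 3 and 24 h were lost in 6 and 5 of 8 fits that left out 1 library, with adjusted p values up to 0.103 and 0.12. At 16 h the value was 0.52 ± 0.30 (adjusted p = 0.249), and fasted libraries ranged from 471 to 1994 CPM. Without fasted library 1, the lowest, it was 0.78 (adjusted p = 0.0498).

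A rise of Slc16a10 was also called in macrophage nuclei, by 1.21 ± 0.21 at 3 h (edgeR adjusted p = 0.00043) and 1.01 ± 0.21 at 8 h (adjusted p = 0.00215). At 3 h the fed libraries had 625, 599, 456 and 498 CPM and the fasted ones 1006, 946, 2127 and 983 CPM. Fasted library 3 stood far above the other fasted libraries of that time, and its hepatocyte marker sum, 22905 CPM, was the highest of all macrophage-tagged libraries. Without it the log2 fold change was 0.80 (adjusted p = 0.00277). Fitted to the 8 libraries of that time alone, the 3 h value was 1.21 and did not pass (adjusted p = 0.0734). At 8 h no fed library, at 472, 462, 545 and 515 CPM, reached the fasted values of 978, 1196, 1093 and 745 CPM. The hepatocyte marker sums that moved with fasting at 3 and 8 h, given with Arsg beside those of hepatocyte nuclei, moved here too. The part of hepatocyte RNA was not tested. In unpurified liver Slc16a10 rose at 3 h (0.77 ± 0.20, adjusted p = 0.0195), at 8 h (1.14 ± 0.20, adjusted p = 0.00287) and in the mean over times (0.67 ± 0.10, adjusted p = 0.000326). In that mean, the pools of either line alone did not pass (adjusted p = 0.124 and 0.0663), in fits with a fasting term common to all times.

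Slc16a12, the gene of a creatine carrier, fell in hepatocyte nuclei at 24 h and was not called at the other times. Fed nuclei at 24 h had 736, 626, 684 and 815 CPM and fasted nuclei 161, 261, 227 and 124 CPM, with no overlap. The log2 fold change was -1.87 ± 0.33 (edgeR adjusted p = 0.000151). At 3, 8 and 16 h the values were -0.11 ± 0.32, -0.15 ± 0.32 and 0.63 ± 0.32. Fed libraries at these times ranged from 318 to 417, 178 to 252 and 217 to 298 CPM, so the fed level at 24 h was above that of any other fed library. The effect differed between times (adjusted p = 0.000941). In the pools Slc16a12 fell at 24 h, from 557 and 615 CPM fed to 170 and 301 CPM fasted (-1.36 ± 0.19, adjusted p = 0.00215), and at 8 h (-0.61 ± 0.18, adjusted p = 0.0353), and the effect differed between times (adjusted p = 0.00947). The 8 h pools of the HEP-INTACT line stood closer, at 173 CPM fed and 148 CPM fasted. A fall in the mean over times was also called, but the pools of either line alone did not pass (adjusted p = 0.674 and 0.357). The fits to either line held a fasting term common to all times. A fasting effect that differed between times, as here, therefore added to their spread. In macrophage nuclei the 24 h value was -0.84 ± 0.40 and did not pass (adjusted p = 0.195).

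**Figure D4:**
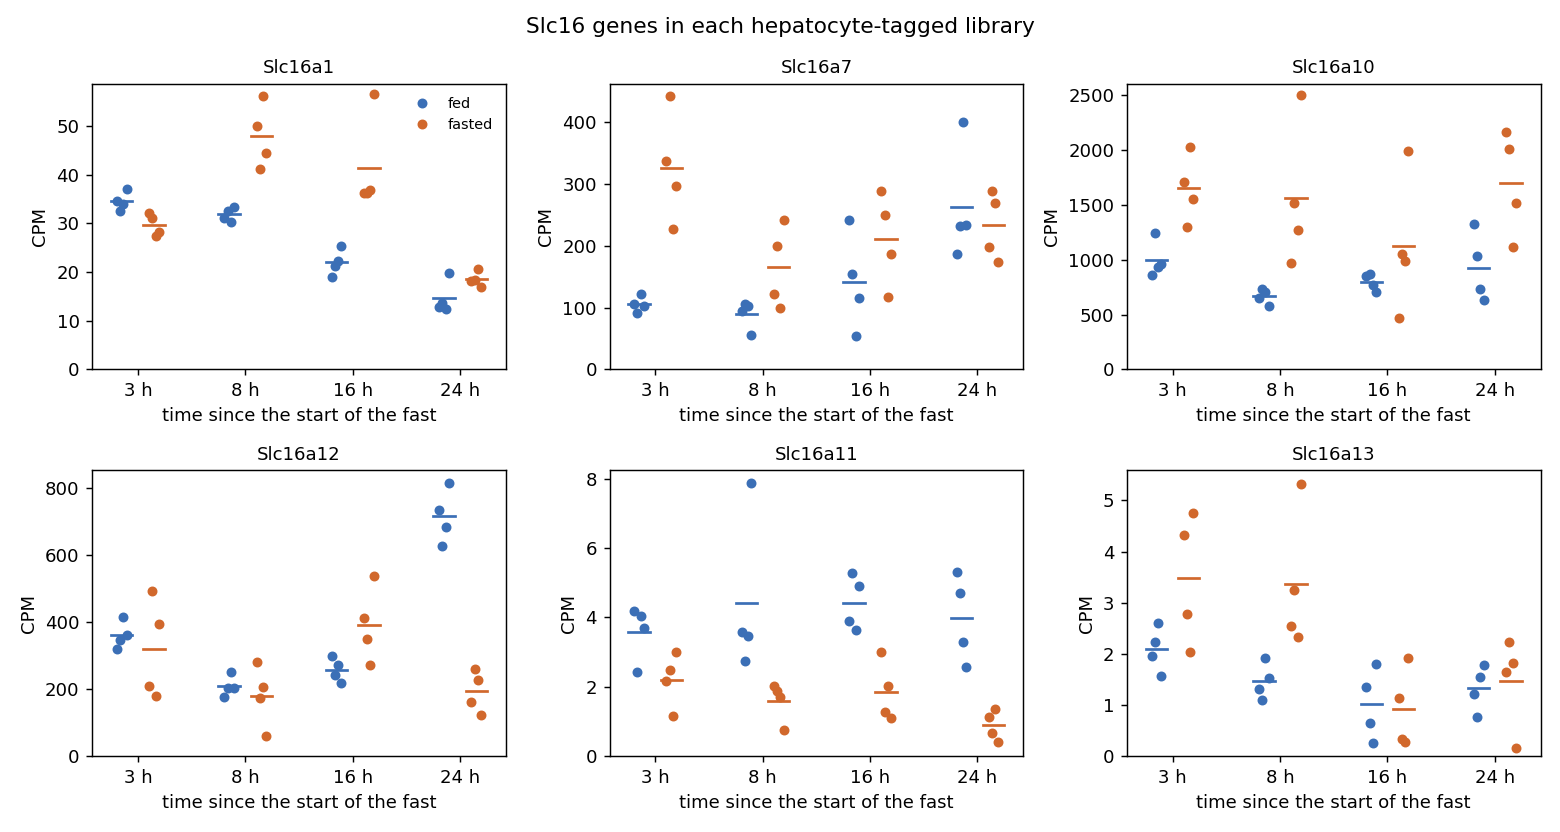
Level in CPM of 6 Slc16 genes in each hepatocyte-tagged library, by time since the start of the fast, fed in blue and fasted in orange, with bars at the mean of 4 libraries. Each panel has its own axis from 0. The fed level of Slc16a12 is highest at 24 h, where the fasted libraries are 124 to 261 CPM, and Slc16a7 separates at 3 h.

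Slc16a11 and Slc16a13, the adjacent pair on chromosome 11, had few counts, 5 to 144 and 2 to 91 per hepatocyte-tagged library, which limits their precision. Slc16a11, whose product is a pyruvate carrier, fell at 8 h, from 3.58, 2.75, 3.46 and 7.87 CPM fed to 2.01, 1.88, 1.71 and 0.761 CPM fasted (log2 fold change -1.37 ± 0.36, edgeR adjusted p = 0.00356). It also fell at 16 h (-1.24 ± 0.36, adjusted p = 0.0153), a call lost without fasted library 4 (adjusted p = 0.0549). At 24 h the fall was from 5.31, 4.72, 3.30 and 2.59 CPM to 1.12, 0.675, 1.36 and 0.406 CPM (-2.07 ± 0.39, adjusted p = 0.000302). Every fasted library was below every fed one at these 3 times. At 3 h the value was -0.65 ± 0.36 (adjusted p = 0.155), and a difference between times did not pass (adjusted p = 0.16). In unpurified liver the mean over times fell by 1.25 ± 0.23 on the log2 scale (adjusted p = 0.00111). The pools of either line alone did not pass (adjusted p = 0.072 and 0.0749), in fits with a fasting term common to all times.

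Slc16a13, whose product is a lactate carrier, rose at 8 h in hepatocyte nuclei, by 1.24 ± 0.50 (edgeR adjusted p = 0.0495), from 1.31, 1.10, 1.91 and 1.53 CPM to 2.55, 3.25, 2.33 and 5.33 CPM. The groups did not overlap, but the call was lost in 6 of 8 fits without 1 library (adjusted p up to 0.159), with no filter on low counts (adjusted p = 0.059) and with library-number block as a term (adjusted p = 0.0522). At 3 h the value was 0.79 ± 0.48 (adjusted p = 0.193), and with the 8 libraries of that time alone it was 0.80 and passed (adjusted p = 0.0487). In the pools the 8 h value was 1.01 ± 0.32 (adjusted p = 0.0441, and 0.0508 with no filter). No fasting effect on either gene was called in macrophage nuclei, where Slc16a11 had 0 to 71 counts per library. At 8 h in hepatocyte nuclei the calls of the 2 neighbours had opposite signs.

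Among fed libraries alone, the level changed with the time of day in hepatocyte nuclei for 3 of the 6 tested genes, against 30.1% of all genes. Slc16a1 (edgeR F-test, adjusted p = 1.16e-06) was highest at zeitgeber time 15, at 34.6 ± 1.87 CPM (SD, n = 4), and lowest at zeitgeber time 12, at 14.6 ± 3.49 CPM. Slc16a12 (adjusted p = 0.000242) was highest at zeitgeber time 12, at 715 ± 80.3 CPM, and lowest at zeitgeber time 20, at 209 ± 31.1 CPM. Slc16a7 (adjusted p = 0.00212) was highest at zeitgeber time 12, at 263 ± 93.5 CPM, and lowest at zeitgeber time 20, at 89.7 ± 22.5 CPM. In macrophage nuclei only Slc16a12 passed (adjusted p = 0.0287, with 12.8% of genes called), and that call was lost in 5 of 16 fits without 1 library, with adjusted p values up to 0.163. The summed hepatocyte markers there had fed group medians of 5934 CPM at zeitgeber time 20 and 9047 CPM at zeitgeber time 12. In hepatocyte nuclei the fed medians at these times were 16435 and 24262 CPM. The part of hepatocyte RNA in this call was not tested. These tests use the same fed libraries as the fasting effects.

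In the fed state all 8 members differed between hepatocyte and macrophage nuclei, 5 higher and 3 lower in hepatocytes, as did 82.7% of all genes, 42.7% higher and 40.0% lower. Higher in hepatocyte nuclei were Slc16a11 (log2 difference 1.93 ± 0.25), Slc16a1 (1.53 ± 0.11), Slc16a12 (1.22 ± 0.19), Arsg (1.02 ± 0.11) and Slc16a10 (0.54 ± 0.13). Lower were Slc16a6 (-1.13 ± 0.11), Slc16a13 (-1.003 ± 0.20) and Slc16a7 (-0.49 ± 0.14). The largest adjusted p of these, by edgeR, was 0.00101, for Slc16a7. Cell type, line and library series cannot be told apart here either. Hepatocyte marker RNA was present in the macrophage fraction, and its part in these differences was not tested.

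Against unpurified liver of the same conditions, macrophage tagging raised Slc16a6 (1.44 ± 0.12, edgeR adjusted p = 2.44e-13) and Slc16a13 (0.80 ± 0.17, adjusted p = 6.64e-05). It lowered Slc16a1 by 1.30 ± 0.13, Slc16a12 by 1.15 ± 0.19, Slc16a11 by 1.06 ± 0.29, Arsg by 0.70 ± 0.14 and Slc16a10 by 0.47 ± 0.10 on the log2 scale, while Slc16a7 stood at -0.01 ± 0.10 and was not called. That made 7 of 8 called, against 76.8% of all genes, 36.2% higher and 40.7% lower. Hepatocyte tagging raised 3 of the 8, against 28.8% of all genes higher, 21.5% lower and 50.3% in either direction. These were Slc16a11 (0.53 ± 0.20, adjusted p = 0.0226), Slc16a1 (0.26 ± 0.08, adjusted p = 0.00521) and Arsg (0.21 ± 0.09, adjusted p = 0.0427). The median of all genes in that comparison was 0.12, and the Arsg call was lost with RLE size factors (adjusted p = 0.0887), with no filter (adjusted p = 0.0841) and in DESeq2 (adjusted p = 0.0832).

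Levels of the genes were set side by side per kb of gene body, as CPM per kb. Gene bodies ran from 2.5 kb for Slc16a11 to 108.7 kb for Slc16a10. The counting tool is not stated, so the use of reads in introns is not known, and the order is a description. In fed hepatocyte nuclei the order of the medians over 16 libraries was Slc16a10 at 7.49, Slc16a12 at 3.92, Slc16a11 at 1.52, Slc16a6 at 1.48, Slc16a1 at 1.41, Slc16a7 at 1.09, Arsg at 0.578 and Slc16a13 at 0.367 CPM per kb. The ranges over libraries overlapped between every gene and the next in that order. Slc16a10, at 5.34 to 12.2 CPM per kb, did not overlap any gene below Slc16a12. In fed macrophage nuclei the order was Slc16a10 at 5.003, Slc16a6 at 2.89, Slc16a7 at 1.84, Slc16a12 at 1.73, Slc16a13 at 0.646, Slc16a1 at 0.397, Slc16a11 at 0.381 and Arsg at 0.299 CPM per kb. Slc16a6 was thus placed the fourth in hepatocytes and the second in macrophages. Its range in macrophage nuclei, 1.92 to 3.56 CPM per kb, lay below that of Slc16a10, 4.197 to 7.11 CPM per kb. The summed hepatocyte markers had group medians of 5934 to 9047 CPM in fed macrophage-tagged libraries. In fed hepatocyte-tagged libraries these medians were 16435 to 24262 CPM. The part of hepatocyte RNA in the macrophage levels was not tested.

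**Figure D5:**
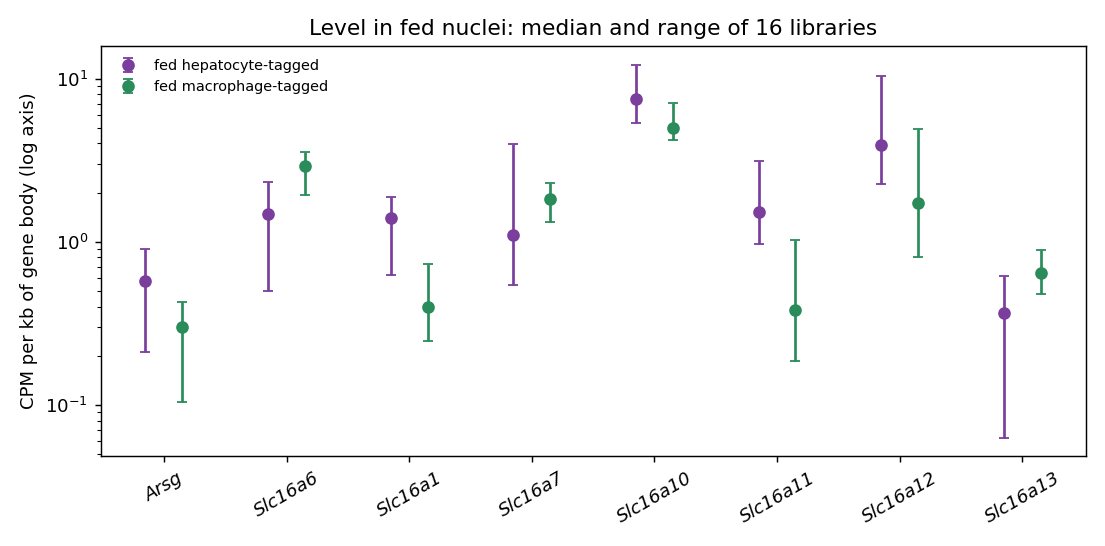
Level of the 8 genes in fed nuclei as CPM per kb of gene body on a log axis, with the median (point) and range (bar) of 16 fed hepatocyte-tagged (purple) and 16 fed macrophage-tagged (green) libraries. Slc16a10 has the highest median in both fractions, and Slc16a6 is higher in macrophage than in hepatocyte nuclei.

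The other genes of these pathways were counted in lists, to be read against the shares of all genes that rose and fell in the same nuclei and times, given with the 6 Slc16 genes. Of 13 further monocarboxylate transporters, pyruvate carriers and partner proteins, 8 were tested in hepatocyte nuclei, where 2 rose and none fell at 3 h, 2 rose and 2 fell at 8 h, 2 rose and none fell at 16 h and none was called at 24 h. The median log2 fold change of this list was 0.22, 0.34, 0.12 and 0.07. Slc16a4, another member of the family, rose by 3.41 ± 0.76 on the log2 scale at 8 h (edgeR adjusted p = 0.00081). Mpc2, a subunit of the mitochondrial pyruvate carrier, rose by 0.84 ± 0.21 at 3 h (adjusted p = 0.00259), and Slc16a5 rose by 1.16 ± 0.30 at 16 h (adjusted p = 0.0084). The Slc16a5 call was lost without fasted library 3 of its time (adjusted p = 0.0736) and with the 8 libraries of that time alone (adjusted p = 0.107). In macrophage nuclei 9 were tested and 1 was called at 3 h, Slc16a9, which rose by 0.83 ± 0.22 (adjusted p = 0.0167), and 1 at 16 h, Slc16a4, which rose by 2.18 ± 0.56 (adjusted p = 0.0107). The Slc16a9 call was lost without fasted library 3 of that time, at 0.50 (adjusted p = 0.174), and without fed library 1 or 3 (adjusted p = 0.051 and 0.0686). The median hepatocyte marker sum of macrophage nuclei was higher in fasted groups at 3 and 16 h, and its part was not tested.

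All 12 genes of the list of ketone body and lactate enzymes were tested in hepatocyte nuclei, and 5 rose and 3 fell at 3 h, 6 rose and 3 fell at 8 h, 4 rose and 2 fell at 16 h and 4 rose and 4 fell at 24 h. The median log2 fold change of the list was 0.35, 0.40, 0.22 and 0.14. Ldha, which encodes a subunit of lactate dehydrogenase, rose by 1.32 ± 0.16 at 3 h (edgeR adjusted p = 3.16e-07). Acat1, the mitochondrial thiolase that joins acetyl-CoA, rose by 1.15 ± 0.13 at 8 h (adjusted p = 6.89e-08), while Ldhd, the D-lactate dehydrogenase, fell by 1.68 ± 0.19 on the log2 scale (adjusted p = 9.72e-08). In macrophage nuclei 2 rose and 2 fell at 3 h, 4 rose at 8 h, 3 rose and 1 fell at 16 h and 3 rose and 1 fell at 24 h. Aacs, which activates acetoacetate for lipid synthesis, fell there by 3.64 ± 0.51 on the log2 scale at 16 h (adjusted p = 3.22e-05). Acat1 rose there by 1.22 ± 0.20 at 16 h (adjusted p = 0.000263) and Ldha by 1.15 ± 0.23 (adjusted p = 0.00179), when the hepatocyte marker sum was higher in fasted libraries, and its part was not tested.

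Of 13 other sulfatases and their activators found in the table, 11 were tested in hepatocyte nuclei, and 3 rose and 4 fell at 3 h, 4 rose and 3 fell at 8 h, none was called at 16 h and 3 rose at 24 h. Their median log2 fold change was 0.11, 0.07, 0.08 and -0.11. Arsb, the lysosomal arylsulfatase B, fell by 1.09 ± 0.14 on the log2 scale at 3 h (edgeR adjusted p = 4.52e-07), as did Sgsh, another enzyme of heparan sulfate breakdown, by 1.74 ± 0.31 (adjusted p = 5.8e-05). Sumf2 fell by 0.66 ± 0.13 at 3 h (adjusted p = 0.000188). Sumf1, the enzyme that activates sulfatases, rose by 0.85 ± 0.14 at 8 h (adjusted p = 1.7e-05). In macrophage nuclei 12 were tested, and 1 rose at 8 h, Sulf2 by 1.35 ± 0.28 (adjusted p = 0.00228), 1 fell at 16 h, Ids by 0.47 ± 0.15 (adjusted p = 0.0396), and 1 rose at 24 h, Sgsh by 0.85 ± 0.15 (adjusted p = 0.000211). The Ids call was lost in several fits, for instance without fasted library 1 of that time (adjusted p = 0.154). The median hepatocyte marker sum of macrophage nuclei was higher in fasted groups at 8, 16 and 24 h, and its part was not tested.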

How the data were processed

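Reads were aligned with STAR 2.4.2a to mm10, per the submitters' processing notes, and neither the counting tool nor its use of strand is stated in the sources. The deposited table of raw read counts per gene, with a gene length equal to end minus start, was the input to every test. The authors' other tables hold a signal (each count divided by 1 size factor per library), log2 fold changes and adjusted p-values, made with DESeq2 1.24.0 per the submitters' processing notes. Only their log2 fold changes for Arsg are quoted.

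Counts were filtered with filterByExpr (minimum count 10, minimum total 15), scaled by TMM and fitted with edgeR 4.0.16 (glmQLFit, robust) in R 4.3.3. Hepatocyte-tagged, macrophage-tagged and unpurified libraries were fitted separately for fasting effects, and together where fractions or cell types were compared. P-values were adjusted over all genes tested. RLE size factors, no filter, DESeq2 1.42.0, fits to the 8 libraries of a time, a library-number block, single-line pools and leaving out each library were the alternatives. Single-line pools were fitted with time and a fasting term common to all times, not by condition, so a fasting effect that changed with time added to the spread. Fasting tests of Arsg and Slc16a6 in the pools, planned at first, were left out. The code was tested on simulated data. All 8 members are named in each comparison, with up to 4 called genes per list and cell type, the nearest neighbour on each side of the Arsg and Slc16a6 locus, and 5 genes of like profile. Members and lists were chosen with earlier results of these data known. Some genes that this rule names are not reported here.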

Additional observations from a re-analysis of the deposited data

Results flagged for a closer look

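In 8 of 128 groups of 4 libraries, 1 library lay far from the other libraries by Dixon's criterion, where chance gives about 1 in 20. Arsg stood at 36.3 CPM in fed hepatocyte library 3 at 24 h, against 21.2 to 22.7 CPM in the other libraries. Slc16a1 was at 56.5 CPM in fasted hepatocyte library 4 at 16 h (others 36.1 to 36.7 CPM) and at 19.8 CPM in fed hepatocyte library 4 at 24 h (others 12.3 to 13.6 CPM). Slc16a11 was at 7.87 CPM in fed hepatocyte library 4 at 8 h (others 2.75 to 3.58 CPM). In macrophage nuclei, Slc16a6 was at 53.8 CPM in fasted library 2 at 16 h (others 42.1 to 43.9 CPM), and Slc16a10 at 2127 CPM in fasted library 3 at 3 h (others 946 to 1006 CPM). Slc16a12 was at 131 CPM in fasted macrophage library 4 at 8 h (others 60.5 to 69.8 CPM) and at 261 CPM in fasted macrophage library 4 at 24 h (others 96.2 to 124 CPM).

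Some fasting effects differed between times or cell types in edgeR's quasi-likelihood test of that difference. Between times, the adjusted p was 0.00104 for Slc16a1, 0.0244 for Slc16a7 and 0.000941 for Slc16a12 in hepatocyte nuclei, and 0.0492 for Slc16a1 in macrophage nuclei, a call lost in 23 of 32 fits without 1 library. In unpurified liver it was 0.0327 for Slc16a1 and 0.00947 for Slc16a12. Between cell types, the Slc16a7 effect at 3 h was larger in hepatocyte than in macrophage nuclei by 1.38 on the log2 scale.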

How the results depend on the processing

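The labels give no replicate numbers that tie a fasted to a fed library. A fit with blocks of neighbouring library numbers, taken from the titles, stood in for a paired analysis. Among the results it was run on, this block ended the calls of Slc16a13 at 8 h in hepatocyte nuclei (adjusted p = 0.0522), of the Slc16a1 difference between times (adjusted p = 0.0622) and of Wipi1 at 16 h (adjusted p = 0.0571) in macrophage nuclei, all by edgeR, and changed no other. Counts of called genes moved by over 1.5 times as follows. With only the 8 libraries of a time, 885 genes were called at 16 h in hepatocyte nuclei (2343 with all libraries), and 247 at 3 h and 989 at 16 h in macrophage nuclei (1716 and 1901). DESeq2 called 1645 genes for a difference between times in macrophage nuclei (645 in edgeR), 1857 in unpurified liver (816), and 133 for hepatocyte minus macrophage at 16 h (75, and 48 with no filter). For the mean over times in unpurified liver, the HEP-INTACT pools alone gave 2 calls and the MAC-INTACT pools alone 866, against 4826 together. The fits to a time or to a line use fewer samples, and those to a line also use a fasting term common to all times. The causes of all these differences, with DESeq2 and with no filter too, were not tested. Leaving out 1 library gave 1485 to 2540 calls at 16 h in hepatocyte nuclei, 702 to 2720, 702 to 1741 and 922 to 2270 at 3, 8 and 16 h in macrophage nuclei, and 1134 to 1721 for the fed time of day there (1771 with all libraries). The lowest of these at 3 h was without fasted library 3. Signs that changed belonged to values that did not pass. Slc16a6 in hepatocyte nuclei against liver was -0.0012 in DESeq2, Slc16a7 in macrophage nuclei against liver 0.025 with no filter, Slc16a13 in liver at 24 h -0.0013 with RLE, and the liver mean of Slc16a1 -0.031 in MAC-INTACT pools. Without 1 library, Slc16a12 ranged from -0.36 to 0.12 at 3 h and -0.45 to 0.15 at 8 h in hepatocyte and -0.076 to 0.43 at 3 h in macrophage nuclei. Slc16a13 ranged from -0.88 to 0.26 at 16 h and -0.063 to 0.51 at 24 h in hepatocyte, and from -0.48 to 0.0049, -0.036 to 0.18 and -0.091 to 0.16 at 3, 8 and 24 h in macrophage nuclei. Slc16a7 at 24 h ranged from -0.30 to 0.10 in hepatocyte and -0.14 to 0.028 in macrophage nuclei, Slc16a11 at 8 h from -0.077 to 0.57 and Slc16a1 at 24 h from -0.026 to 0.21 in macrophage nuclei. Amz2 ranged from -0.050 to 0.15 at 3 h in hepatocyte and -0.0035 to 0.15 at 24 h in macrophage nuclei. Low counts limit the precision for Slc16a11 and Slc16a13.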
